A study of Caenorhabditis elegans with 2 samples.

Results

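The nuclear hormone receptor genes of Caenorhabditis elegans were examined for binding of CHD-7, the worm member of the CHD7 group of ATP-dependent chromatin remodellers. The members are the protein-coding genes of the Ensembl WBcel235 annotation whose name starts with nhr-. There are 269 of them among 19973 protein-coding genes. CHD-7 was mapped in whole worms by ChIP-seq in 1 group of 2 biological replicates. The worms were of strain OP609, with the genotype unc-119(tm4063) III; wgIs609. Their wgIs609 insertion expresses CHD-7 with a C-terminal GFP-FLAG tag, and chromatin was pulled down with an anti-GFP antibody. The peaks are therefore those of the tagged protein, averaged over all tissues of the worm. Both replicates were mixed-sex young adults, collected 67 hours after synchronisation of starved first-stage larvae. The control alignment used by the authors was not analysed here, there was no second condition, and no test between conditions was possible. Members were taken by name alone, without a check of their protein domains.

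Nuclear hormone receptors are transcription factors with a zinc-finger DNA-binding domain and a ligand-binding domain that can sense steroids, fatty acids and other small lipids. A small set has counterparts in flies and vertebrates, among them the receptors that time molting, xenobiotic responses and neuronal identity. Most worm receptors come from a large expansion of genes related to vertebrate HNF4, and many of these sit in clusters on chromosome V. In worms, members of the expansion act in fat storage, diet response and detoxification, and the function of many others is unknown.

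The family was split by a list of 11 conserved receptors and by chromosome. Chromosome V carried 167 members, 62.1% of the family against 25% of all protein-coding genes. Of these, 166 formed the expanded chromosome V group, since nhr-111 belongs to the conserved list. The other 92 members lay elsewhere. A pooled candidate is 1 of 30000 entries called by the authors on both replicates together, in a list that by its type holds peaks and background. A reproducible peak is 1 of the 1884 entries that the authors kept from the replicate and pooled lists. Every reproducible peak named here had the same rank by signal in the reproducible list as in the pooled list. Counts of reproducible peaks and pooled ranks are therefore not separate evidence, and a reproducible peak need not rank high in each replicate. The promoter window covers 1000 bp before and 200 bp after the annotated 5′ end, and the gene body is the annotated gene. The signal is the authors' value per entry, and it ranks entries within a list only.

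The 4 promoter peaks of highest signal and the 3 others with the hexamer TGATAA, of the kind bound by GATA factors, at the summit are shown first, because the motif counts that follow rest largely on them. Each line gives 151 bases of the WBcel235 plus strand centred on the summit, taken from the RefSeq assembly. Capitals mark GAGAGA or TGATAA, searched on both strands, so they also appear as TCTCTC or TTATCA. The intervals are chrV:11572932-11573082 for nhr-68, chrX:15707522-15707672 for nhr-48, chrX:17513642-17513792 for nhr-1, chrV:5505166-5505316 for nhr-47, chrIV:7049851-7050001 for nhr-105, chrV:4186483-4186633 for nhr-114 and chrII:2800964-2801114 for nhr-119. The gene is on the plus strand in each case except nhr-119.
nhr-68: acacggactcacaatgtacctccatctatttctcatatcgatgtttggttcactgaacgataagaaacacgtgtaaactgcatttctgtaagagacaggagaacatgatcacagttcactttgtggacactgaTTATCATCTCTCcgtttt
nhr-48: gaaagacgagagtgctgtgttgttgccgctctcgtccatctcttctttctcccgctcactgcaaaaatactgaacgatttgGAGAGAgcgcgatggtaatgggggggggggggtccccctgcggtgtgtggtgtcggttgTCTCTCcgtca
nhr-1: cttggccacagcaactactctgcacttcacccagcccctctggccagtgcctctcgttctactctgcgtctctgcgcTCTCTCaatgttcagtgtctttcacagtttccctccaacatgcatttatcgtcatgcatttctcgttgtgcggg
nhr-47: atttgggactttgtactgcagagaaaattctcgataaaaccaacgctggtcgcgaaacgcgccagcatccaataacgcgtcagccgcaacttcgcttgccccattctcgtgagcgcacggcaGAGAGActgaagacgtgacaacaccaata
nhr-105: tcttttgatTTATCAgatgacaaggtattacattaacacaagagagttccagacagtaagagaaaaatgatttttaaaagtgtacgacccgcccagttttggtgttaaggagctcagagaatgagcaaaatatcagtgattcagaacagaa
nhr-114: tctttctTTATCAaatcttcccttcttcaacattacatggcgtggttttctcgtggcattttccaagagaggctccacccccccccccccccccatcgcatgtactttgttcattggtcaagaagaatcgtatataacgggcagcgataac
nhr-119: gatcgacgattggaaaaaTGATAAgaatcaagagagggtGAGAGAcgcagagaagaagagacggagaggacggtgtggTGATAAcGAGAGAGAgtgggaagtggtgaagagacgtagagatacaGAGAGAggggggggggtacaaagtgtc

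GAGAGA stood within 75 bp of the summit in 6 of the 13 promoter peaks, 46.2%, against 30.3% of all 1884 reproducible summits and 14.1% of all pooled candidates. TGATAA stood there in 4 of the 13, 30.8%, against 10.5% of reproducible summits and 10.8% of candidates. Over all 27 windows at members, promoter and body together, TGATAA was in 4, 14.8%, and GAGAGA in 11, 40.7%. GAGAGA and TGATAA cannot share letters on either strand, and nhr-68 and nhr-119 held both. AGGTCA, the half-site that many nuclear receptors bind, was in none of the 27 windows, against 4.51% of all reproducible summits and 4.67% of candidates. No match says only that these letters are not in the window. The median GC content of the 13 promoter summits was 47.7%, the same as for all reproducible summits, against 43.7% for candidates. The sets of all reproducible summits and of candidates include summits outside promoter windows. Promoter position and family membership thus cannot be told apart in these shares. With 13 sites they are a description and no enrichment was tested.

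As a family, nhr- genes had a candidate or a reproducible CHD-7 summit at their promoters about as often as protein-coding genes in general. A candidate alone does not show binding, since that list also holds background. A pooled candidate lay in the promoter window of 80 of 269 members, 29.7% (95% Wilson interval 24.6% to 35.5%), against 30.8% of all protein-coding genes. A reproducible summit lay in the window of 13 members, 4.83% (2.85% to 8.09%), against 4.18%. Among genes with a candidate, 16.2% of members and 13.6% of all coding genes had a reproducible summit. Of the 269, 70 had 1 promoter candidate, 9 had 2 and nhr-48 had 3. No candidate in either the window or the body was found for 122 members. The intervals cover counting error over genes only. Library depth is unknown, since the lists carry no reads per peak.

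The groups within the family differed in how often a candidate was present. A promoter candidate was found at 8 of 11 conserved receptors, 72.7% (43.4% to 90.3%), and at 40 of 166 expanded receptors of chromosome V, 24.1% (18.2% to 31.1%). These intervals do not overlap, but they cover counting error over genes only, and the difference between the groups was not tested. The chromosome V value was close to that of all coding genes on the same chromosome, 25.5%, whereas the interval of the conserved group lay above the 30.8% of all coding genes. The remaining 92 members gave 34.8%. With the HNF4-like receptors nhr-14, nhr-49, nhr-64 and nhr-69 added to the conserved list, 12 of 15 had a candidate. The conserved list holds only receptors named nhr-. Of 5 receptors of the family with other names, daf-12 among them, 1 had a promoter candidate and none a reproducible promoter summit. The window has the same width for every gene. The median gene length was 5472 bp for conserved receptors and 2146 bp for the chromosome V group, and its part in the result was not tested. The median GC content of the windows was 39.0% for conserved receptors, 33.5% for the chromosome V group and 35.0% for all coding genes, and its part was not tested either.

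**Figure D1:**
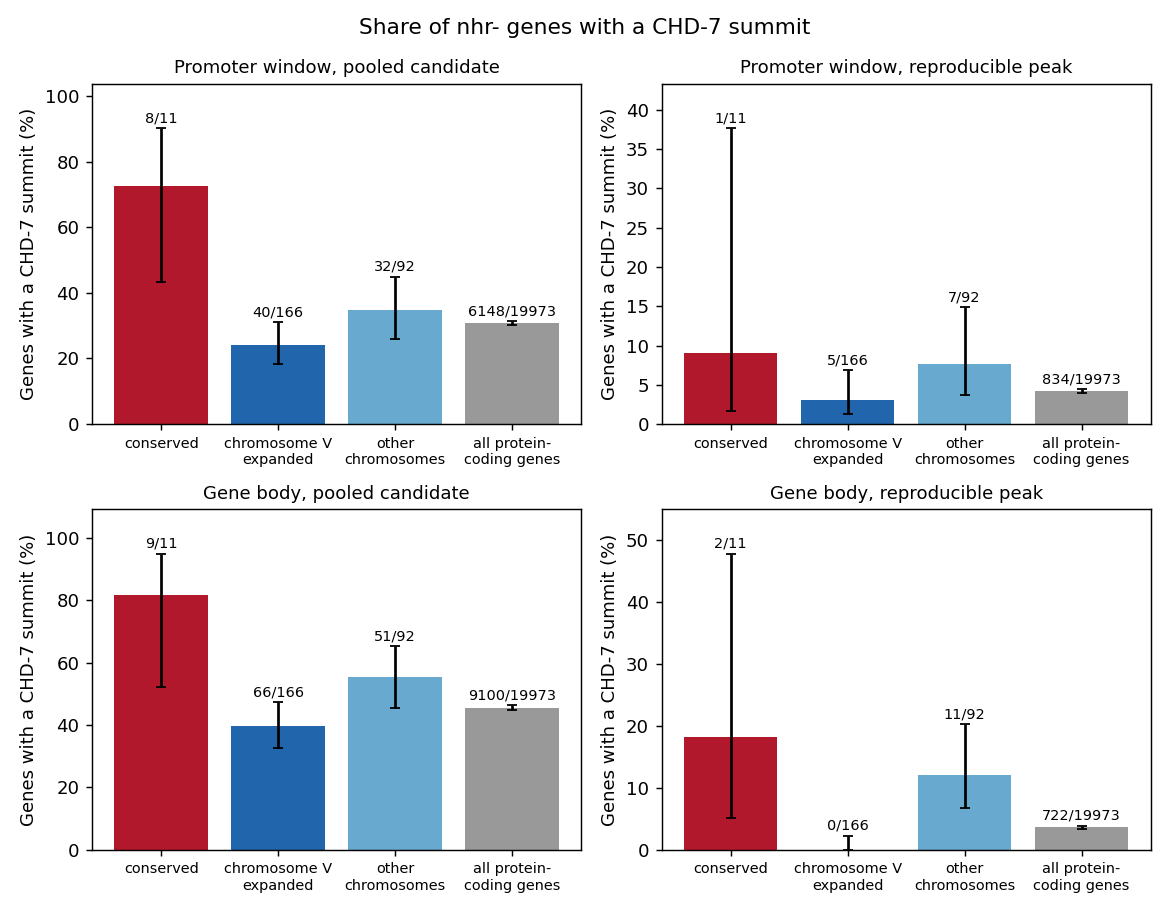
Percent of genes (vertical axes) with a CHD-7 summit in conserved, chromosome V expanded and other nhr- genes and in all protein-coding genes, with bars for the share, whiskers for the 95% Wilson interval and counts above. Conserved receptors had promoter candidates in 8 of 11 cases against 40 of 166 in the chromosome V group, while reproducible promoter peaks were few in each group (1 of 11, 5 of 166 and 7 of 92).

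Genes with a promoter candidate were also compared by its rank. The best-ranked promoter candidate of a gene had a median pooled rank of 11420 over the 8 conserved receptors, 12180 over the 40 of chromosome V, 9549 over the 32 other members and 11478 over all 6148 coding genes with a candidate. Ranks within the first 5000 were held by 2 of the 8, 8 of the 40 (20.0%) and 9 of the 32 (28.1%), against 27.8% of all coding genes with a candidate. Reproducible promoter summits were at 1 of 11 conserved receptors, 9.09% (1.62% to 37.7%), and at 5 of 166 of chromosome V, 3.01% (1.29% to 6.86%). On chromosome V the share of all coding genes was 2.9%. These intervals overlap, and they cover counting error over genes only. With 11 conserved genes and no test, they decide nothing about a difference between conserved and expanded receptors in reproducible peaks. On the X chromosome 16 of 23 members had a promoter candidate, 69.6% (49.1% to 84.4%), against 35.0% of X coding genes, and 4 had a reproducible summit, 17.4% (6.98% to 37.1%), against 4.83%. The X members, 3 of them conserved, were singled out after their values were seen.

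**Figure D2:**
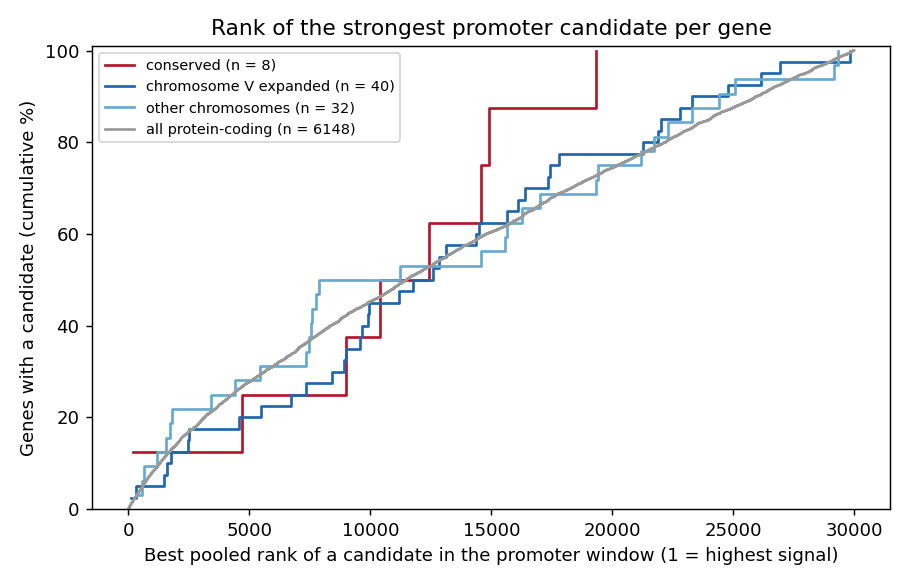
Cumulative percent of genes with a promoter candidate (vertical axis) by the pooled rank of their best candidate (horizontal axis, 1 is the highest signal), 1 line per group. The medians were 11420 for conserved receptors, 12180 for the chromosome V group, 9549 for the other members and 11478 for all coding genes, and no conserved receptor's best candidate ranked below 19334.

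Taking the conserved receptors one by one, nhr-48 was the exception with a strong promoter peak. It is a relative of the hormone receptor DAF-12 and of the xenobiotic receptor NHR-8. Its summit lay 616 bp upstream (chrX:15707402-15707791) with a signal of 220.1 in replicate 1 and 190.0 in replicate 2, at ranks 175 and 259, and it ranked 199 in the reproducible list. Both replicates thus placed it well inside their 1884 highest entries. None of the others had a reproducible promoter summit. For nhr-25, the NR5A-type receptor of molting and epidermal development, the candidate at 32 bp downstream ranked 4686 in the pool, with ranks of 2626 and 28088 in replicates 1 and 2. For nhr-8 the candidate 85 bp upstream ranked 8990, and for nhr-85, the worm counterpart of fly E75 and vertebrate Rev-erb, that at 855 bp upstream ranked 10409. The candidates at nhr-91, nhr-6, nhr-239 and nhr-41 ranked 12432, 14576, 14921 and 19334. No promoter candidate was found at nhr-23, the ROR-type regulator of molting, at nhr-67, a counterpart of fly tailless, or at nhr-111. For nhr-67 the gene body held none either. Each of the 4 HNF4-like receptors had a promoter candidate. Those of nhr-14, nhr-69 and nhr-64 ranked 5458, 19330 and 21194, and only that of nhr-49 was reproducible.

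On chromosome V, 5 expanded receptors had a reproducible promoter summit, among them genes of diet and oxygen responses. The strongest of all members was nhr-68, which works with nhr-10 in the worm's response to low vitamin B12. Its peak (chrV:11572909-11573102) had a signal of 259.3 in replicate 1 and 260.3 in replicate 2, at ranks 112 and 107. The summit lay 433 bp upstream of nhr-68 but 17 bp upstream of the neighbouring gene H12C20.7, whose window it shares. The peak at nhr-47 (chrV:5505046-5505435) had 158.2 and 169.9 in replicates 1 and 2, at ranks 436 and 344. Its summit was 12 bp upstream of nhr-47, inside an exon of the non-coding RNA gene C24G6.10 and in the window of dnj-19. The other 3 of this group were weaker. At nhr-114, which protects worms from diet-dependent sterility, the summit lay 644 bp upstream in an intron of Y45G5AM.9. Its signal was 88.0 in replicate 1 and 76.2 in replicate 2, at ranks 2357 and 2422. At nhr-57, a gene induced by the hypoxia factor HIF-1, the summit was 188 bp upstream, at ranks 3131 and 1562 in replicates 1 and 2. At nhr-142 it was 455 bp upstream and nearer to F44E7.9, with ranks of 10988 and 725, so the 2 replicates did not hold it alike.

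On the other chromosomes 7 members outside the conserved list had a reproducible promoter summit. The highest was nhr-1 (chrX:17513522-17513911), 346 bp upstream, with a signal of 168.1 in replicate 1 and 173.3 in replicate 2 (ranks 368 and 330). Next was nhr-35 (chrX:4532145-4532534), 351 bp upstream, with 113.5 and 156.9 in replicates 1 and 2 (ranks 1068 and 428). The summit assigned to nhr-255 (chrX:15741860-15742249), 555 bp upstream, lay inside the tRNA gene WBGene00014626 and the non-coding RNA gene ZK678.11, with 145.1 and 104.5 (ranks 552 and 1182). Of the 13 promoter summits no other lay within 100 bp of a small structural RNA gene, such as those of tRNAs and snoRNAs. The summits at nhr-105, nhr-88, nhr-49 and nhr-119 had signals from 168.9 to 198.6 in the reproducible list, below its median of 216.0. In replicate 1 these 4 ranked from 2972 to 3991, and in replicate 2 from 936 to 1598. nhr-49 is the regulator of fat desaturation and beta-oxidation, and its summit was 332 bp upstream (chrI:9869124-9869513).

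**Figure D3:**
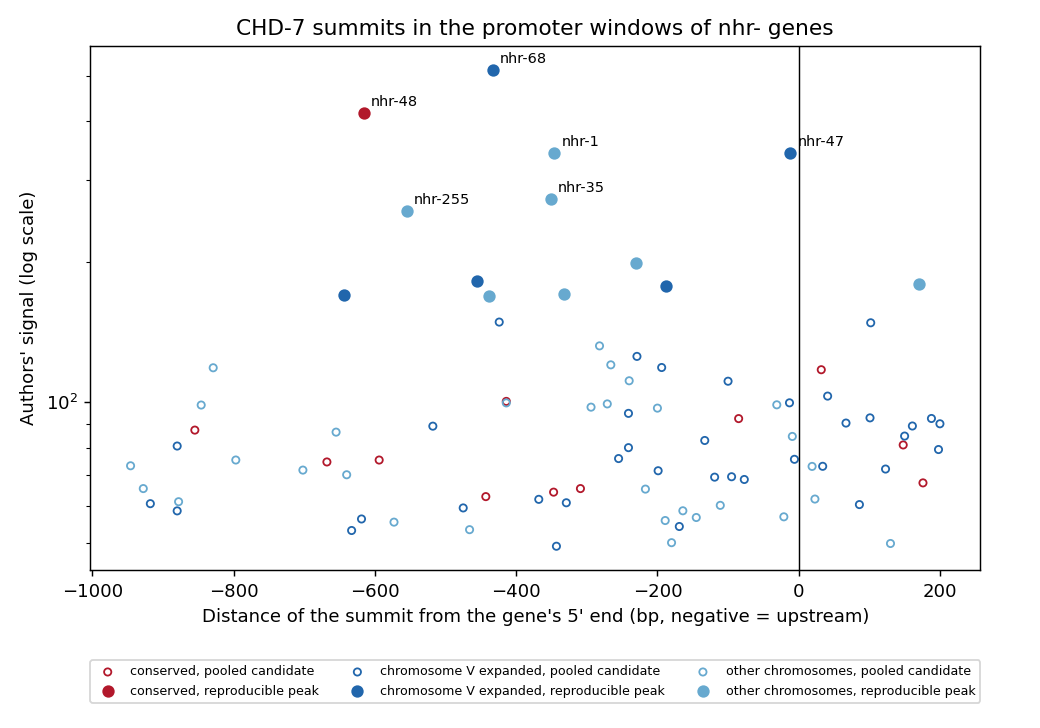
Authors' signal (vertical axis, log scale) against the distance of each summit from the gene's 5′ end (horizontal axis, bp, negative is upstream) for pooled candidates (open circles) and reproducible peaks (filled), coloured by group. All reproducible promoter peaks except that of nhr-88, 170 bp downstream, lay upstream, from 12 bp at nhr-47 to 644 bp at nhr-114.

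Of the 13 promoter summits 12 were upstream of the 5′ end, at a median of 351 bp from it over all 13. Intergenic sequence held 9, introns 2 and exons of non-coding RNA genes 2. For 11 of the 13 the nearest 5′ end of any coding gene was the member's own, the exceptions being nhr-68 and nhr-142. Replicate 2 held these peaks better than replicate 1. Of the 13, 12 were met by an entry among replicate 2's 1884 highest and 6 by one among replicate 1's, and the rank was higher in replicate 2 for 10. Over all 706 reproducible summits in coding promoter windows the shares were 82.9% for replicate 2 and 76.5% for replicate 1. Of these 706, 53.8% had the higher rank in replicate 2. Counted in the 1884 top-ranked entries of each replicate on its own, 6 members had a promoter summit in replicate 1 and 13 in replicate 2, 2.23% and 4.83%, against 3.72% and 4.59% of all coding genes. The 7 genes of the 13 without a summit among replicate 1's highest entries were nhr-49, nhr-57, nhr-88, nhr-105, nhr-114, nhr-119 and nhr-142, and nhr-114 had none in replicate 2 either.

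**Figure D4:**
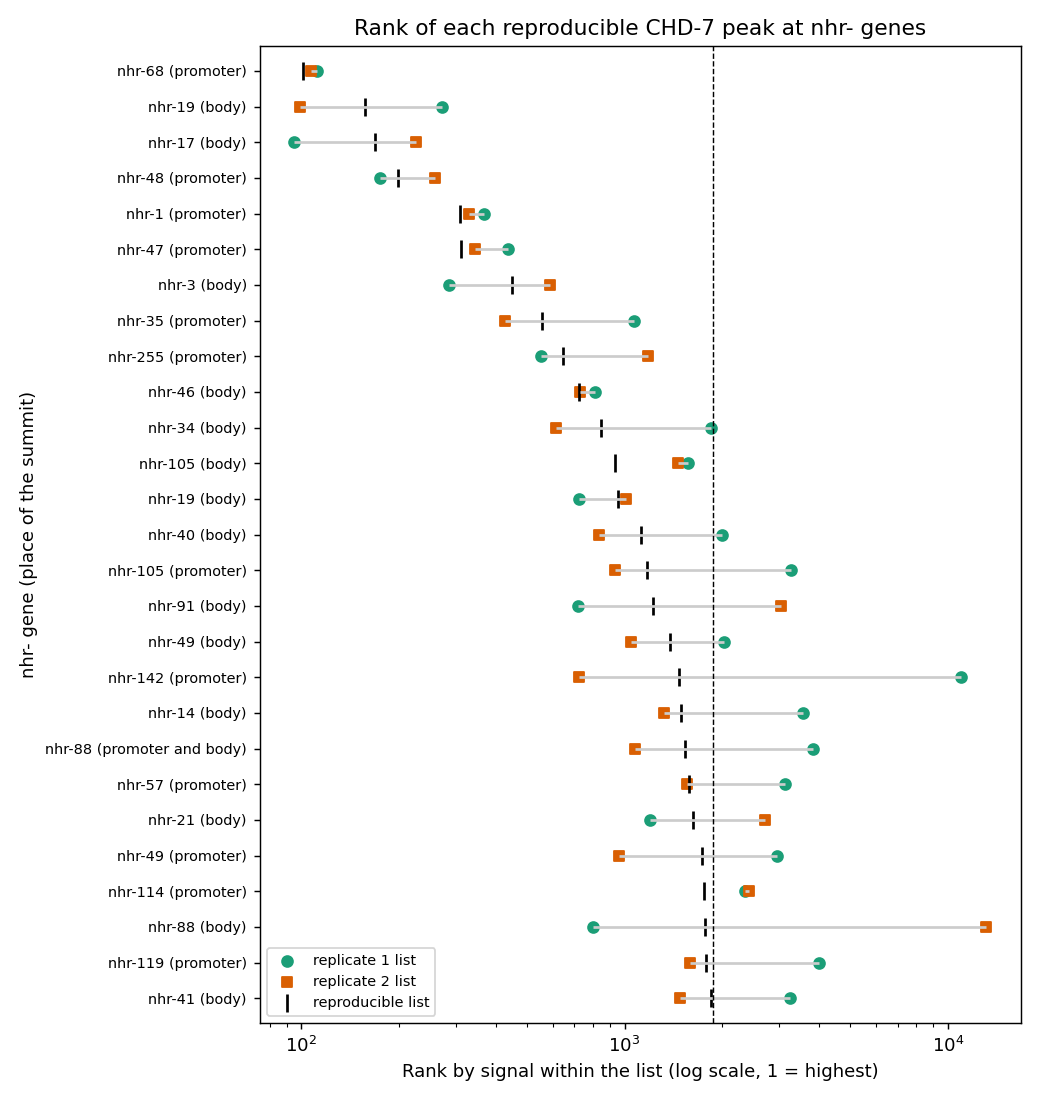
Rank of each reproducible peak at nhr- genes (horizontal axis, log scale, 1 is the highest signal) in the replicate 1, replicate 2 and reproducible lists, 1 row per peak, with a dashed line at rank 1884. The highest peaks, such as nhr-68, nhr-48, nhr-1 and nhr-47, ranked alike in both replicates, whereas nhr-142 and the body peak of nhr-88 in a coding exon ranked below 10000 in 1 of them.

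In gene bodies, reproducible summits were found at members outside the chromosome V group only. A reproducible summit lay in the body of 13 of 269 members, 4.83% (2.85% to 8.09%), against 3.61% of all coding genes. Of these 13, 2 were conserved and 11 were among the 92 other members, 12% (6.81% to 20.2%). None was among the 166 of chromosome V, with a Wilson upper limit of 2.26%, against 2.42% of all coding genes on that chromosome. Taken as 3 counts, the limit that a count of 0 allows is 1.81%. Pooled candidates lay in the body of 9 of 11 conserved receptors, 81.8%, of 66 of 166 on chromosome V, 39.8%, and of 51 of 92 elsewhere, 55.4%. The share was 45.6% for all coding genes and 38.5% for those on chromosome V.

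Gene length enters these counts, so the summits were also taken per length. Conserved receptors had a median length of 5472 bp, the chromosome V group 2146 bp, the others 2804 bp and all coding genes 2027 bp. Per megabase of gene body there were 495.7 pooled candidates in conserved receptors, 228.6 in the chromosome V group and 502.6 in the others, against 345.3 in all coding genes and 327.7 in those on chromosome V. For reproducible summits the values were 30.0, 0 and 29.0, against 13.7 in all coding genes and 11.1 on chromosome V. The value of the conserved receptors rests on 2 summits in 0.0666 megabases, and that of the others on 13 in 0.448 megabases. Taken as 3 counts, the 0 of chromosome V receptors allows up to 7.29 per megabase, against the 11.1 of that chromosome's coding genes. It was the count of the reproducible list and of replicate 2's 1884 highest entries, whereas those of replicate 1 gave 2 such receptors.

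The body peaks lay mostly in introns, 11 of 15, with 2 in coding exons and 2 in non-coding exons inside the gene. The highest were at nhr-19 (chrII:9603569-9603714), in an intron 1885 bp from the 5′ end, and at nhr-17 (chrX:12665107-12665368). The nhr-19 peak had a signal of 185.7 in replicate 1 and 267.5 in replicate 2 (ranks 273 and 99). A second peak of nhr-19, 4154 bp in, ranked 724 and 1013. The nhr-17 peak had 270.7 and 199.5 in replicates 1 and 2 (ranks 95 and 227), and its summit was 21 bp from the tRNA gene WBGene00009555. At nhr-41, the counterpart of vertebrate TR2 and TR4, the summit lay inside the tRNA gene WBGene00023202, which is within nhr-41 (ranks 3247 and 1480). At nhr-91, of the germ cell nuclear factor type, it lay in the non-coding RNA gene Y15E3A.15 (ranks 716 and 3050). Thus both conserved receptors with a body peak had it at a non-coding RNA gene, and 2 of the 15 body summits were within 100 bp of a tRNA gene. For 11 of the 15 the nearest 5′ end of any coding gene was the member's own. The exceptions were nhr-17, the second peak of nhr-19, nhr-40 and the coding-exon peak of nhr-88.

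The other body peaks were at nhr-3, nhr-46, nhr-34, nhr-105, nhr-40, nhr-49, nhr-14, nhr-88 and nhr-21. At nhr-3 the signal was 181.0 in replicate 1 and 137.8 in replicate 2 (ranks 287 and 586), and at nhr-46 125.7 and 126.2 (ranks 808 and 726). The rest had reproducible-list signals from 169.3 to 227.0. In nhr-88 the peak 8908 bp from the 5′ end, in a coding exon, ranked 801 in replicate 1 and 13126 in replicate 2. The 3 receptors nhr-49, nhr-88 and nhr-105 had reproducible summits in both the window and the body, the one in nhr-88's window being inside the gene. For nhr-40 and nhr-41 the body summit fell in the promoter window of another annotated transcript, so with transcript 5′ ends 15 members had a promoter summit, 2 of them conserved.

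The family was further divided by how far the nearest other member lies, a split and limit chosen after the values were known. The nearest other member lay within 10000 bp (5′ end to 5′ end) for 150 members, of which 121 were in the chromosome V group, and farther for 119, among them all 11 conserved receptors. Of the clustered 150, 31 had a promoter candidate, 20.7%, against 30.8% of all coding genes. Of these 150, 1 had a reproducible promoter summit, nhr-68, 0.667% against 4.18% of all coding genes. On chromosome V, where most of the 150 lay, the shares of coding genes were lower, 25.5% and 2.9%. Of the 119 apart, 49 had a candidate, 41.2%, and 12 a reproducible summit, 10.1%. Reproducible body summits were at none of the clustered members and at 13 of those apart, 10.9%, against 3.61% of all coding genes. These 13 genes were from 2457 bp (nhr-14) to 13139 bp (nhr-41) long, against a median of 2309 bp over all members. Body summits were not taken per length for this split, and the part of gene length was not tested. Within the chromosome V group candidates were at 28 of 121 clustered and 12 of 45 separate members, 23.1% and 26.7%. Among the 92 other members they were at 3 of 29 and 29 of 63, 10.3% and 46.0%. With limits of 5000 and 20000 bp, 1 of 126 and 2 of 172 clustered members had a reproducible promoter summit, nhr-49 joining nhr-68 at the wider limit. The difference between clustered and separate members was not tested. Within the chromosome V group, which held most clustered members, the candidate shares were close, but those of reproducible promoter summits were not. These were at 1 of 121 clustered and 4 of 45 separate members, 0.826% and 8.89%, against 2.9% of coding genes on that chromosome.

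Along chromosome V, cut into 3 equal parts, 4 of the 5 receptors with a reproducible promoter summit were in the left part, 4 of 78, against 1 of 41 in the middle and 0 of 47 in the right. For all coding genes on V the shares were 2.9%, 3.89% and 1.83% from left to right. With 5 receptors this is a description.

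Among members just short of the reproducible list, the highest promoter candidates were at nhr-193, nhr-102 and nhr-80, with pooled ranks of 2466, 2491 and 3396. The candidate of nhr-193 lay 33 bp from a tRNA gene, at ranks 2522 and 4232 in replicates 1 and 2. That of nhr-102 lay in a coding exon 102 bp downstream, at ranks 4250 and 3902. That of nhr-80, which controls fatty acid desaturases together with nhr-49, lay 282 bp upstream at ranks 4867 and 3682, in a window shared with H10E21.1. Of 8 receptors listed for metabolic roles, 6 had a promoter candidate and 3 a reproducible one, nhr-49, nhr-68 and nhr-114. All coding genes had 30.8% and 4.18%. This short list was chosen with earlier results of these data known, and no difference from these shares was tested.

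Genes that work with the receptors were counted by lists, to be read against the 30.8% of all coding genes with a promoter candidate and the 4.18% with a reproducible promoter summit. The lists are short, and no difference from these shares was tested. All 5 coregulators and modifiers had a promoter candidate, and 2 had a reproducible summit. These were din-1, a corepressor of DAF-12, 726 bp upstream (ranks 122 and 170 in replicates 1 and 2), and the acetyltransferase cbp-1, 857 bp upstream (ranks 21 and 26). The mediator subunit mdt-15, a partner of NHR-49, had a reproducible summit in a coding exon of its body (ranks 2688 and 3348). That summit was nearer to the 5′ end of R12B2.13 than to that of mdt-15. A body summit of din-1 lay 13456 bp from its 5′ end, inside the snoRNA gene F07A11.15. Of 7 targets of NHR-49 and NHR-80, 3 had a candidate and acs-2, an acyl-CoA synthetase gene, a reproducible summit 642 bp upstream (ranks 3970 and 451). Of 5 receptors with other names, 1 had a promoter candidate, and daf-12 had an intronic reproducible summit 1718 bp from its 5′ end (ranks 1164 and 1091). Of 6 hormone synthesis genes 1 had a promoter candidate, and of 12 molting genes 3 had one. None of these 2 lists' genes had a reproducible promoter summit, and at their size that is no result about the lists.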

How the data were processed

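CHD-7 ChIP-seq peak lists of 2 replicates in 1 group were used. Per the labels, the build is ce11 (WBcel235). Per the submitters' notes, each list was called against 1 control alignment, on each replicate and on the pool, and the reproducible list came from these by IDR. The sources used here name no caller, aligner or IDR cutoff. The signal that the authors deposited for each peak, not comparable between lists, served for ranking alone. Summits were placed at the deposited offset from each start. Replicate ranks are those of the highest overlapping entry.

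Windows were counted against Ensembl release 115 with Python 3.11.15, pandas 2.3.3 and statsmodels 0.14.6, after checks on simulated summits. Named members are all with a reproducible summit, the conserved and HNF4-like lists, the 3 highest candidates short of the list, and related genes with a reproducible promoter summit. Added after their values were seen were daf-12 and mdt-15. The conserved list was written from general knowledge of the family. The members, lists and motifs were chosen with earlier results of these data known. No read counts were given, so depth is unknown and no test was run. ce10 lists were not used.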

Additional observations from a re-analysis of the deposited data

How the results depend on the processing

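Of 63 alternative counts, 51 stayed within 1.5 times the reported one and 12 did not. With the 942 highest of the 1884 reproducible entries, 6 members had a promoter summit, 2 of them on chromosome V, and 6 had a body summit. Leaving out a replicate, and so counting the 1884 highest entries of the other, gave 6 to 13 members with a promoter summit and 2 to 4 on chromosome V, the lower values without replicate 2. The window of 500 bp up and 100 bp down left 0 conserved receptors with a reproducible summit, because the nhr-48 summit lies 616 bp upstream, and 26 of chromosome V with a candidate, against 61 with 2000 bp up and 500 bp down. Transcript 5′ ends gave 2 conserved receptors, as did adding the HNF4-like ones (nhr-49). Without members that share a window, chromosome V had 2, and with only summits nearest to the member's own 5′ end, chosen after seeing the data, 3. The cause of changes not named here was not tested. No paired analysis was possible because there is 1 group and no test. Depth could not be judged without read counts, and 11 conserved genes limit every share.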
